A study of Mus musculus with 2 samples.

Results

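Collagens and the small proteoglycans that bind them are described here by 33 genes, chosen by symbol from a fixed list out of the 32285 genes counted. The list holds 23 collagen chains, 8 small leucine-rich proteoglycans and 2 lysyl hydroxylases (Plod1 and Plod2). Their transcripts were counted in 2 single-cell RNA sequencing libraries of mouse ovarian tumors, 1 library for control IgG and 1 for the Activin A neutralizing antibody, so that cells expressing them could be compared between treatments. The host mice were female C57BL/6 animals, 6 to 8 weeks old, and the grafted cells were syngeneic ovarian cancer cells of the genotype p53-/-, myc, Hras. In both groups the peritoneum had been abraded before the cells were given, and both samples therefore carry that wound. Injections into the peritoneal cavity were given daily for 10 days, to 7 mice with control IgG and 8 mice with the antibody, as the labels state, and tumors from the abraded site were pooled within each group before enzymatic dissociation. With 1 pooled library per group there are no replicates, no test between treatments was possible, and treatment cannot be told apart from any other difference between the libraries.

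Collagens are built from 3 chains wound into a helix, hydroxylated in the endoplasmic reticulum, cleaved after secretion and assembled into fibrils, beaded filaments or sheets. Types I, III, V and XI form fibrils, types XII, XIV and XVI sit on fibril surfaces, type VI makes beaded filaments around cells, and type IV makes the sheet of basement membranes together with types XV and XVIII. Small leucine-rich proteoglycans such as decorin and biglycan bind fibrils, set their width and hold growth factors of the TGF-beta family. In tumors these genes are mostly known from cancer-associated fibroblasts, and myofibroblasts, which carry the contractile genes Acta2 and Tagln, are held to be strong producers of type I collagen.

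Promoter windows are shown for Ogn, Aspn and Bgn, since Ogn and Aspn had the highest ratios of antibody over control IgG among the proteoglycan genes in fibroblasts and Bgn the lowest. Each is the 250 bases before the RefSeq start in the GRCm38.p6 table, 5′ to 3′ on the plus strand, with none of these bases in an annotated UTR. Capitals mark matches on either strand to the CCAAT box (CCAAT), the TATA box (TATAAA), the GC box (GGGCGG) and the short SMAD element (CAGAC).
Ogn, chr13:49607765-49608014: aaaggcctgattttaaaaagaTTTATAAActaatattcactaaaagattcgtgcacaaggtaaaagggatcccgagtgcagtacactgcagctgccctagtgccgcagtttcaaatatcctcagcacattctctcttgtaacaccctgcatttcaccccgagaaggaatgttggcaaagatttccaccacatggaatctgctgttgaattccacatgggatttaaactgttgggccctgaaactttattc
Aspn, chr13:49544193-49544442: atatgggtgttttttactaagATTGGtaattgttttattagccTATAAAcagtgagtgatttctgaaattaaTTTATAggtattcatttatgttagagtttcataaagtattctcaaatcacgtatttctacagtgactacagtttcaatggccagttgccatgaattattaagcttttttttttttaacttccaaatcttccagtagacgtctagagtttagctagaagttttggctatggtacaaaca
Bgn, chrX:73483351-73483600: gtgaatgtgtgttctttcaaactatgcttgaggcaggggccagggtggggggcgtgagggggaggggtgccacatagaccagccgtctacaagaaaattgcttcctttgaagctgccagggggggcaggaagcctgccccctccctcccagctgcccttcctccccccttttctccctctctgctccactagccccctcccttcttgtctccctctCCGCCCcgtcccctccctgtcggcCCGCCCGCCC
The windows of Ogn and Aspn had 42% and 30.0% G or C, and both held 2 TATA matches, overlapping each other in Ogn, while Aspn also held 1 CCAAT match. These TATA matches lay nearer the far end of the window than the RefSeq start, and whether any is used was not tested. The Bgn window had 64.4% G or C and held 3 GC box matches, a pair of them overlapping, with no TATA or CCAAT match. None of the 3 windows held the SMAD letters, which says only that those letters are not in these windows. Of all 32851 windows of this length in the table, 12.4% held a TATA match, 33.8% a CCAAT match, 32.7% a GC box match and 42.2% a SMAD match. The table holds 25 of the 33 genes in 28 windows, and in these the shares were 14.3%, 39.3%, 57.1% and 46.4%. Col1a1, Col4a3, Col5a2, Col12a1, Col14a1, Dcn, Lum and Plod2 are not shown. Aspn and Ogn lie in a row of 4 genes on chromosome 13 (13:49504810 to 49624501, 119.7 kb), in the order Ecm2, Aspn, Omd, Ogn, and all 4 encode proteins with leucine-rich repeats.

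The libraries held 98174850 and 74117462 unique molecular identifiers (UMIs) for control IgG and the antibody, and 8770 and 6386 cells were kept. Cells were sorted into classes by marker genes that include none of the 33 genes. Fibroblast-gated cells numbered 162 and 203, or 1.85% and 3.18% of kept cells, and were split into those with Acta2 or Tagln (48 and 26), those with Pi16 or Car3 (64 and 94) and the others (50 and 83). Mesothelial-like cells, of the lining of the peritoneal wall, numbered 38 and 31, cancer-like cells 324 and 347, and immune cells 8040 and 5673. Of the 12 fibroblast markers 11 were above 100 CPM (UMIs of a gene scaled to a fixed total per class, 10000 CPM being 1% of its UMIs) in the fibroblast class of both libraries, as were 8 of 8 mesothelial and 5 of 5 cancer markers in their classes, while 27 fibroblasts sat at the minimum of 3 markers. These lists set the classes, so their levels there were largely fixed in advance and are no check of the classes. Markers of other types summed in fibroblasts to 195 and 104 CPM for 8 immune genes and 143 and 95.5 CPM for 8 mesothelial genes. For 6 pericyte and smooth muscle genes the sums were 85.4 and 48.8 CPM. For 7 endothelial genes, of which 4 and 3 were at 0, they were 15.9 and 16 CPM. The 5 cancer markers went the other way, with 187 and 276 CPM, Dlk1 among them at 14.2 and 84.4 CPM, and their part in the results was not tested. In the Acta2 or Tagln subset only 7 of the 12 fibroblast markers, which set the class, were above 100 CPM in either library. There the immune markers summed to 284 and 171 CPM, the mesothelial to 246 and 218 CPM, and the pericyte and smooth muscle to 151 and 96.9 CPM. Libraries shared 19 barcodes of kept cells. Free RNA was at most 4.67% and 2.57% of the UMIs of T, NK and B cells. This was estimated from the 33 genes in those outside the stromal clusters named below, and is no bound for other classes. UMIs are summed over the cells of a class and given as CPM, intervals are exact Poisson 95% intervals, and log2 ratios are antibody over control IgG with a 95% binomial interval. They cover counting error only, not the spread between mice or cells.

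The genes were concentrated in fibroblasts. Together they made up 5.31% of all fibroblast UMIs in the control IgG library and 5.90% in the antibody library, against 2.03% and 1.66% among mesothelial-like cells. Among cancer-like cells the share was 0.166% and 0.189%, and among immune cells 0.0296% and 0.0128%. Fibroblasts thus held 52.7% and 61.1% of the UMIs of these genes. Cells with markers of 2 classes, which were left out, held 12.2% and 8.70%, and cells without a class 7.85% and 3.56%. The cells without a class had Acta2 at 1416 and 162 CPM and Tagln at 982 and 100 CPM. Their part in the difference between libraries was not tested. Genes are counted between classes where both classes together held at least 50 UMIs, a floor that a gene can pass through the class where it is high. Against immune cells 29 of 29 such members were at least 2-fold higher in fibroblasts in the control IgG library, where 19.3% of all genes were (29.2% were lower), and 28 of 28 in the antibody library, where 19.5% were (29.5% lower). Against cancer-like cells 27 of 30 were higher and 2 lower in the control IgG library, where 19.1% and 19.7% of all genes were, and 25 higher and 1 lower in the antibody library, where 20.9% and 19.5% were. Plod2 and Col4a6 were among the 27 and not among the 25. Against mesothelial-like cells 17 of 29 were higher and none lower in the control IgG library, where 12.2% and 5.97% of all genes were. In the antibody library 22 were higher, Bgn and Col4a1 now among them, and Col4a6 was lower, where 15% and 8.13% were. Mesothelial-like cells in turn stood above cancer-like cells for 19 of 24 members and below for 3 in the control IgG library, where 15.3% and 21.2% of all genes were, and for 18 and 3 of 24 in the antibody library, where 15.8% and 18.6% were.

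**Figure D1:**
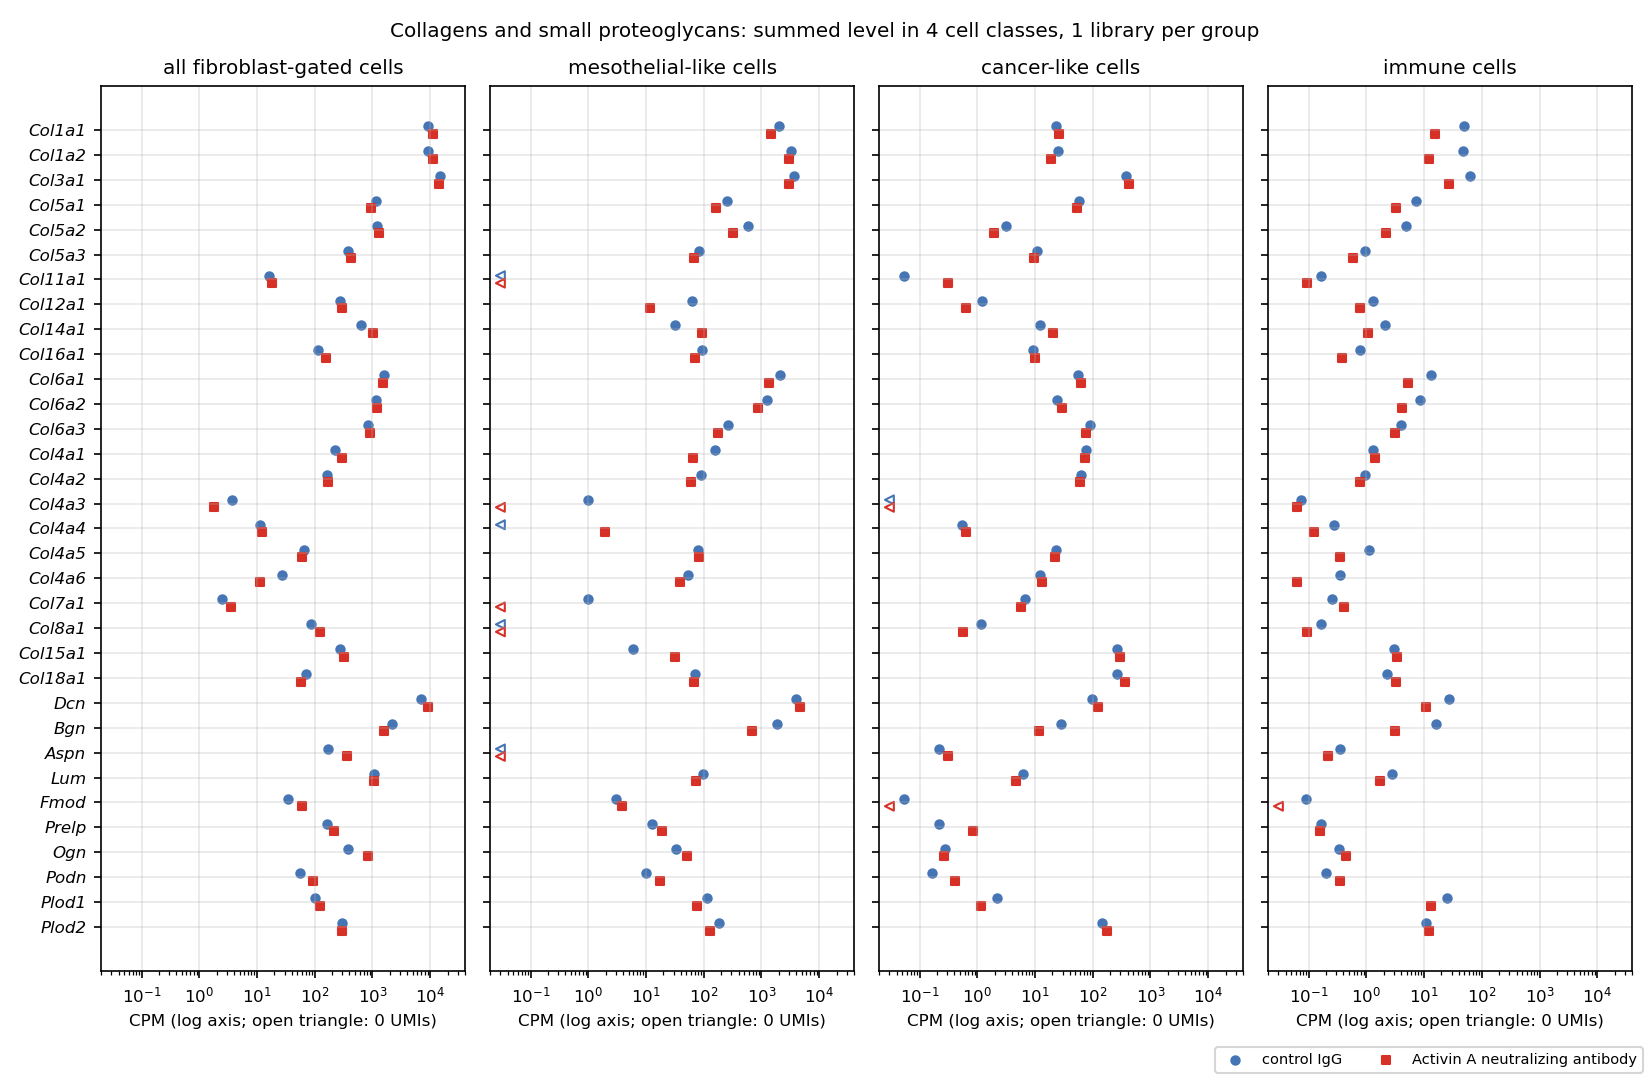
Level of each gene in CPM (log axis) in 4 cell classes, with control IgG as blue circles and the antibody as red squares; each point is the sum over all cells of that class in 1 library, and an open triangle marks 0 UMIs. Fibroblasts hold the highest levels for most genes, while Col18a1 is higher in cancer-like cells (258 and 362 CPM) than in fibroblasts (72.0 and 58.2 CPM).

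Between treatments, the collagen and proteoglycan program of fibroblasts as a whole was close in level, with a higher sum in the antibody library by a log2 ratio of 0.15 (0.14 to 0.16). Of the 33 genes, 31 had at least 50 UMIs over both libraries and are called measured, Col4a3 and Col7a1 being the exceptions. The median log2 ratio of these 31 was 0.16, with 23 above 0 and 8 below, beside a median of 0.02 over the 8775 genes measured in these cells. Only Col4a6 was at least 2-fold lower, where 1.66% of all measured genes were, and 2 genes were at least 2-fold higher (Ogn and Aspn), where 2.07% were. A log2 interval wholly above 0 was found for 16 of the 31 and wholly below 0 for 5, beside 13.7% and 12% of all measured genes. These intervals narrow with the number of UMIs, so that abundant genes exclude 0 at small ratios, as Col3a1 did at -0.09 and Col6a1 at -0.07. The shares were not matched for level and do not show that these genes differed more often than others. Acta2 itself stood at 934 CPM in control IgG and 190 CPM in antibody fibroblasts, and Tagln at 741 and 106 CPM, ratios further from 1 than those of the collagens measured, Col4a6 included.

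**Figure D2:**
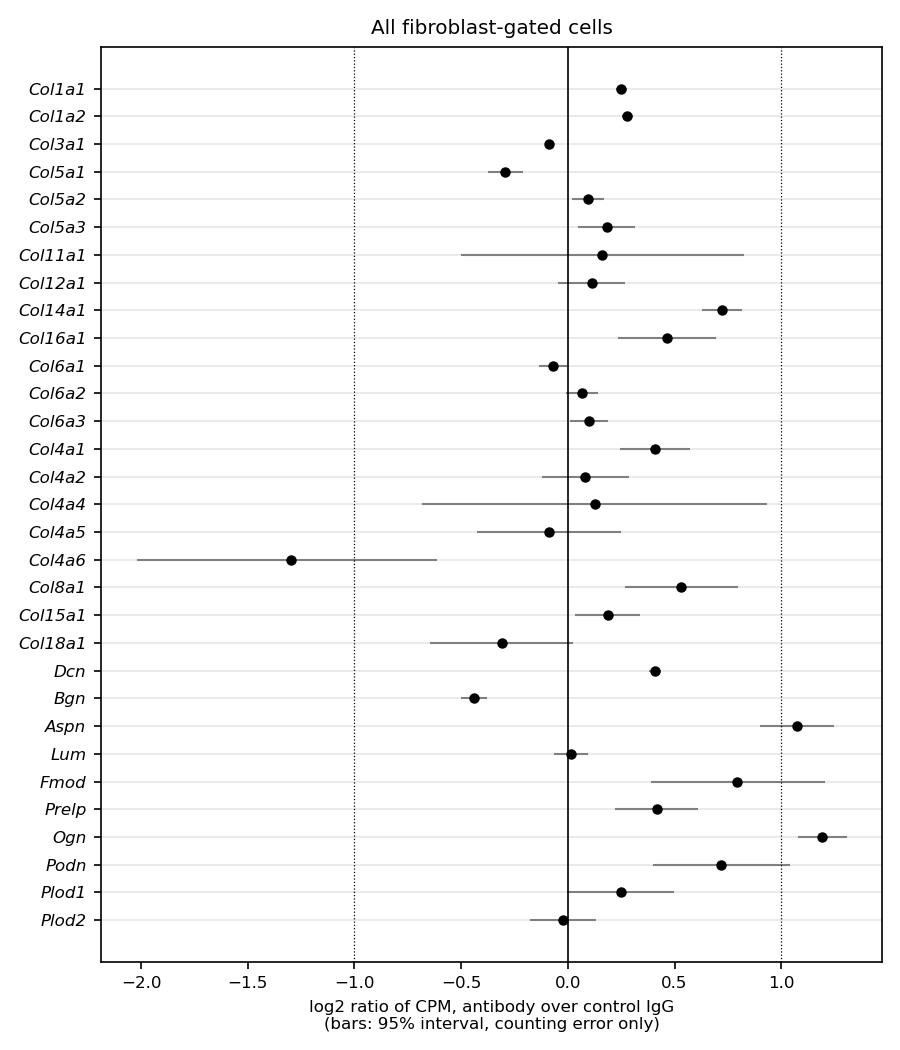
Log2 ratio of CPM, antibody over control IgG, for the 31 genes measured in all fibroblast-gated cells, with 95% intervals for counting error and dotted lines at 2-fold. Ogn (1.19) and Aspn (1.08) lie past the right line, Col4a6 (-1.30) past the left, and the fibrillar chains stay between -0.29 and 0.28.

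Fibrillar collagens were close in level between libraries. Col1a1 and Col1a2, the chains of type I collagen, stood at 9287 and 9261 CPM in control IgG fibroblasts and at 11042 and 11227 CPM in antibody fibroblasts, with log2 ratios of 0.25 (0.22 to 0.28) and 0.28 (0.25 to 0.30). Col3a1, the chain of type III collagen, which is prominent in young granulation tissue, went slightly the other way, with 15027 and 14147 CPM (log2 -0.09). The ratio of Col3a1 to Col1a1 UMIs was thus 1.62 (1.59 to 1.65) in control IgG and 1.28 (1.26 to 1.30) in antibody fibroblasts. It was lower with the antibody in each subset: 1.26 and 1.11 in Acta2 or Tagln cells, 2.20 and 1.45 in Pi16 or Car3 cells, and 1.86 and 1.26 in the others. In mesothelial-like cells it was 1.86 and 2.04. The 2 chains of type I collagen kept a ratio near 1 in fibroblasts, with 1.00 and 0.983 Col1a1 UMIs per Col1a2 UMI, and a lower one in mesothelial-like cells, with 0.620 and 0.489.

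Type V collagen, which starts fibrils and limits their width, divided by chain. Col5a1 was 1165 CPM in control IgG and 951 CPM in antibody fibroblasts (log2 -0.29, -0.37 to -0.21), while Col5a2 was 1207 and 1288 CPM and Col5a3 372 and 422 CPM. The fibroblast subsets were present in different proportions, and with the mix of the antibody library held at that of control IgG the log2 ratio of Col5a1 was -0.13. Col5a1 was the chain enriched in Acta2 or Tagln fibroblasts, where it held 1584 and 1303 CPM against 749 and 833 CPM in Pi16 or Car3 cells. Col11a1 was rare, with 40 and 41 UMIs in all fibroblasts, 52.5% of the control IgG UMIs lying in 1 cell, and none were found in Pi16 or Car3 cells of either library.

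Among the collagens that sit on fibrils, Col14a1 had the largest ratio, at 629 CPM (598 to 661) in control IgG and 1037 CPM (995 to 1080) in antibody fibroblasts, a log2 ratio of 0.72. The cell in the middle of the distribution held 729 and 991 CPM. Col14a1 was low in Acta2 or Tagln cells (107 and 227 CPM) and high in Pi16 or Car3 cells (1414 and 1492 CPM), which made up more of the antibody library, and with the subset mix held the log2 ratio was 0.35. Col12a1 had the opposite distribution, with 430 and 762 CPM in Acta2 or Tagln cells and 84.6 and 86.4 CPM in Pi16 or Car3 cells. Its total in fibroblasts was 275 and 297 CPM (log2 0.11, -0.05 to 0.27), and 0.67 with the mix held, but 1 cell held 24.6% of the Col12a1 UMIs of the antibody Acta2 or Tagln cells. Col16a1 stood at 115 and 158 CPM (log2 0.46, 0.23 to 0.69).

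Type VI collagen was nearly level in fibroblasts. Col6a1 was 1581 and 1507 CPM, Col6a2 1146 and 1199 CPM and Col6a3 850 and 910 CPM, with log2 ratios of -0.07, 0.07 and 0.10. In the same order its log2 ratios were -0.29, -0.04 and 0.23 in Acta2 or Tagln cells. They were 0.16, 0.04 and 0.17 in Pi16 or Car3 cells and 0.44, 0.59 and -0.22 in the others. The proportions of its chains differed by class: per Col6a1 UMI there were 0.538 and 0.604 Col6a3 UMIs in fibroblasts, 0.123 and 0.130 in mesothelial-like cells, and 1.61 and 1.27 in cancer-like cells. Mesothelial-like cells thus carried Col6a1 and Col6a2 at a level near that of fibroblasts (2104 and 1338 CPM for Col6a1) with little Col6a3.

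Type IV collagen of basement membranes was spread over more classes. Col4a1 and Col4a2, which share a head-to-head start on chromosome 8 (Col4a1 at 8:11198423 to 11312826 on the minus strand, Col4a2 at 8:11312805 to 11449287 on the plus strand), stood at 223 and 163 CPM in control IgG and at 296 and 172 CPM in antibody fibroblasts. Cancer-like cells held 54.2% and 53.2% of all Col4a1 UMIs of kept cells, with 77.4 and 73.4 CPM. Within the fibroblasts Col4a1 was lowest in Acta2 or Tagln cells, at 44.3 CPM in control IgG and 113 CPM in the antibody library (log2 1.36, 0.82 to 1.90), with 37.7% of the latter in 1 cell. It was 356 and 334 CPM in Pi16 or Car3 cells and 464 and 395 CPM in the others. Col4a5 and Col4a6, neighbours on chromosome X, were low. Col4a6 had 67 and 25 UMIs in fibroblasts, or 27.3 and 11.1 CPM (log2 -1.30, -2.02 to -0.61), of which 53 and 6 were in Acta2 or Tagln cells and 32.8% of the control IgG UMIs in 1 cell. In Leiden clusters in place of the gate, which take in mesothelial-like cells as well, its log2 ratio was -0.53 and no longer 2-fold. Col4a5 was 65.1 and 61.3 CPM in all fibroblasts, lower with the antibody in Acta2 or Tagln cells (92.6 and 47.6 CPM) and at least 2-fold higher in Pi16 or Car3 cells (26.8 and 62.7 CPM, log2 1.22, 0.46 to 2.04), which rests on 20 and 53 UMIs. Col4a4 had 28 UMIs in fibroblasts of each library, and Col4a3 had 9 and 4.

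Of the remaining collagens, Col15a1, of the zone between basement membrane and fibrils, stood at 278 and 316 CPM in fibroblasts and at a like level of 265 and 298 CPM in cancer-like cells. Col18a1, which gives rise to endostatin, was lower in fibroblasts than in cancer-like cells, by a log2 difference of -1.84 (-2.07 to -1.62) in control IgG and -2.64 (-2.90 to -2.39) in the antibody library. Col7a1, of the anchoring fibrils below epithelia, had 121 and 110 UMIs in cancer-like cells and 6 and 8 in fibroblasts. Col8a1, a short-chain network collagen, was the reverse, with 210 and 278 UMIs in fibroblasts (85.4 and 123 CPM, log2 0.53) and 21 and 11 in cancer-like cells, and it was at 0 in mesothelial-like cells of both libraries, where 3 UMIs would be 2.97 and 2.93 CPM.

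The small leucine-rich proteoglycans held both genes that were at least 2-fold higher in antibody fibroblasts. Of the 8 genes, 7 were above 0 in fibroblasts and Bgn alone was below. Ogn, which encodes osteoglycin, stood at 374 CPM (350 to 399) in control IgG and at 853 CPM (816 to 892) in antibody fibroblasts, a log2 ratio of 1.19 (1.08 to 1.31). The median cell held 352 CPM in control IgG and 874 CPM in the antibody library. By subset, Ogn was 55.7 and 304 CPM in Acta2 or Tagln cells, 693 and 1088 CPM in Pi16 or Car3 cells, and 678 and 1024 CPM in the others, and thus higher in the antibody library in each, with intervals apart. In the first of these subsets 26.5% of the antibody UMIs lay in 1 cell, and 41 of 68 control IgG and 166 of 185 antibody UMIs lay in the 7 and 8 cells of cluster 11 of an unsupervised clustering. The cells of cluster 12 held 23.9 and 37.6 CPM, with overlapping intervals (15.7 to 34.8 and 22.7 to 58.8). Over all fibroblasts the log2 ratio of Ogn was 0.98 with each cell weighted equally, and 0.88 with the subset mix held.

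Aspn encodes asporin, which binds collagen and TGF-beta. It stood at 169 CPM (153 to 186) in control IgG and at 357 CPM (332 to 382) in antibody fibroblasts (log2 1.08, 0.90 to 1.25). In Acta2 or Tagln cells it was 115 and 425 CPM, in Pi16 or Car3 cells 273 and 338 CPM, and in the other fibroblasts 148 and 323 CPM. The ratio in Acta2 or Tagln cells rested on a few cells: 33.2% of the antibody UMIs lay in 1 cell, and without the 7 control IgG and 8 antibody cells of cluster 11 the log2 ratio was 0.08 (-0.46 to 0.61). With each cell weighted equally the log2 ratio of Aspn over all fibroblasts was 0.91, and in the other fibroblasts it was -0.08 when 1 more marker was required of a class. Aspn was at 0 in mesothelial-like cells of both libraries.

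The neighbours of these genes on chromosome 13 were low and on the same side. Omd had 12 UMIs in control IgG fibroblasts and 42 in antibody fibroblasts, or 4.88 and 18.7 CPM (log2 1.93, 0.98 to 3.0). Ecm2, named after its values were seen, was 53.7 and 86.1 CPM (log2 0.68, 0.36 to 1.01).

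Bgn, which encodes biglycan, was the proteoglycan with less in the antibody library. It stood at 2161 CPM (2104 to 2220) in control IgG and at 1594 CPM (1543 to 1647) in antibody fibroblasts (log2 -0.44, -0.50 to -0.38). By subset it was 2505 and 1873 CPM in Acta2 or Tagln cells, 1832 and 1289 CPM in Pi16 or Car3 cells, and 1808 and 1705 CPM in the others, where the interval of the ratio included 0 (-0.21 to 0.04). Within Acta2 or Tagln cells Bgn was 2552 and 1537 CPM in cluster 12. In the few cells of cluster 11 it was higher in the antibody library, at 1914 (1639 to 2223) and 3506 CPM (3155 to 3885). In mesothelial-like cells it was 1871 and 691 CPM (log2 -1.44, -1.56 to -1.31), and in cancer-like cells, where the level was far lower, 28.3 and 11.6 CPM (log2 -1.28, -1.52 to -1.06). In immune cells, which are read below as background and not as a source, Bgn was 16.2 and 3.18 CPM. Without the few immune-gated cells that lay in the stromal clusters it was 2.59 and 0.845 CPM. Across the alternatives run, its log2 ratio stayed between -0.67 and -0.32 in all fibroblasts, between -1.45 and -1.15 in mesothelial-like cells and between -1.37 and -1.08 in cancer-like cells, while in the other fibroblasts it ranged from -0.15 to 0.12. In Acta2 or Tagln cells it ranged from -0.73, in cluster 12 only, to -0.22.

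Dcn, which encodes decorin, also a class I proteoglycan with a like core protein, went the opposite way from Bgn. It was 6849 CPM (6746 to 6953) in control IgG and 9092 CPM (8968 to 9218) in antibody fibroblasts (log2 0.41, 0.38 to 0.44), and the median cell held 6473 and 9150 CPM. By subset Dcn was 4250 and 3781 CPM in Acta2 or Tagln cells, 7749 and 10231 CPM in Pi16 or Car3 cells and 11912 and 11936 CPM in the others, and with the mix held the log2 ratio was 0.11. Counted as Bgn UMIs per Dcn UMI, fibroblasts of the control IgG library had 0.316 (0.306 to 0.325) and those of the antibody library 0.175 (0.169 to 0.182). The same ratio was 0.589 and 0.495 in Acta2 or Tagln cells, 0.236 and 0.126 in Pi16 or Car3 cells, 0.152 and 0.143 in the others, and 0.480 and 0.147 in mesothelial-like cells.

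The other proteoglycans lay between these. Lum, which encodes lumican, was level at 1068 and 1080 CPM (log2 0.02), but lower in Acta2 or Tagln cells of the antibody library (832 and 567 CPM, log2 -0.55, -0.73 to -0.38). Within these, Lum was 840 and 404 CPM in cluster 12 and, the other way, 735 and 1358 CPM in cluster 11. Prelp was 163 and 217 CPM, with a log2 ratio of 0.42 that was 0.10 with the mix held. Podn was 56.1 and 92.4 CPM (log2 0.72, 0.40 to 1.04). Fmod, which encodes fibromodulin, was 34.6 and 59.9 CPM, with 34.1% and 33.3% of its UMIs in 1 cell of each library. Of the lysyl hydroxylases, which prepare collagen for cross-linking, Plod1 was 103 and 122 CPM and Plod2, the enzyme of the telopeptides, 296 and 292 CPM in fibroblasts, and both intervals of the ratio included 0.

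**Figure D3:**
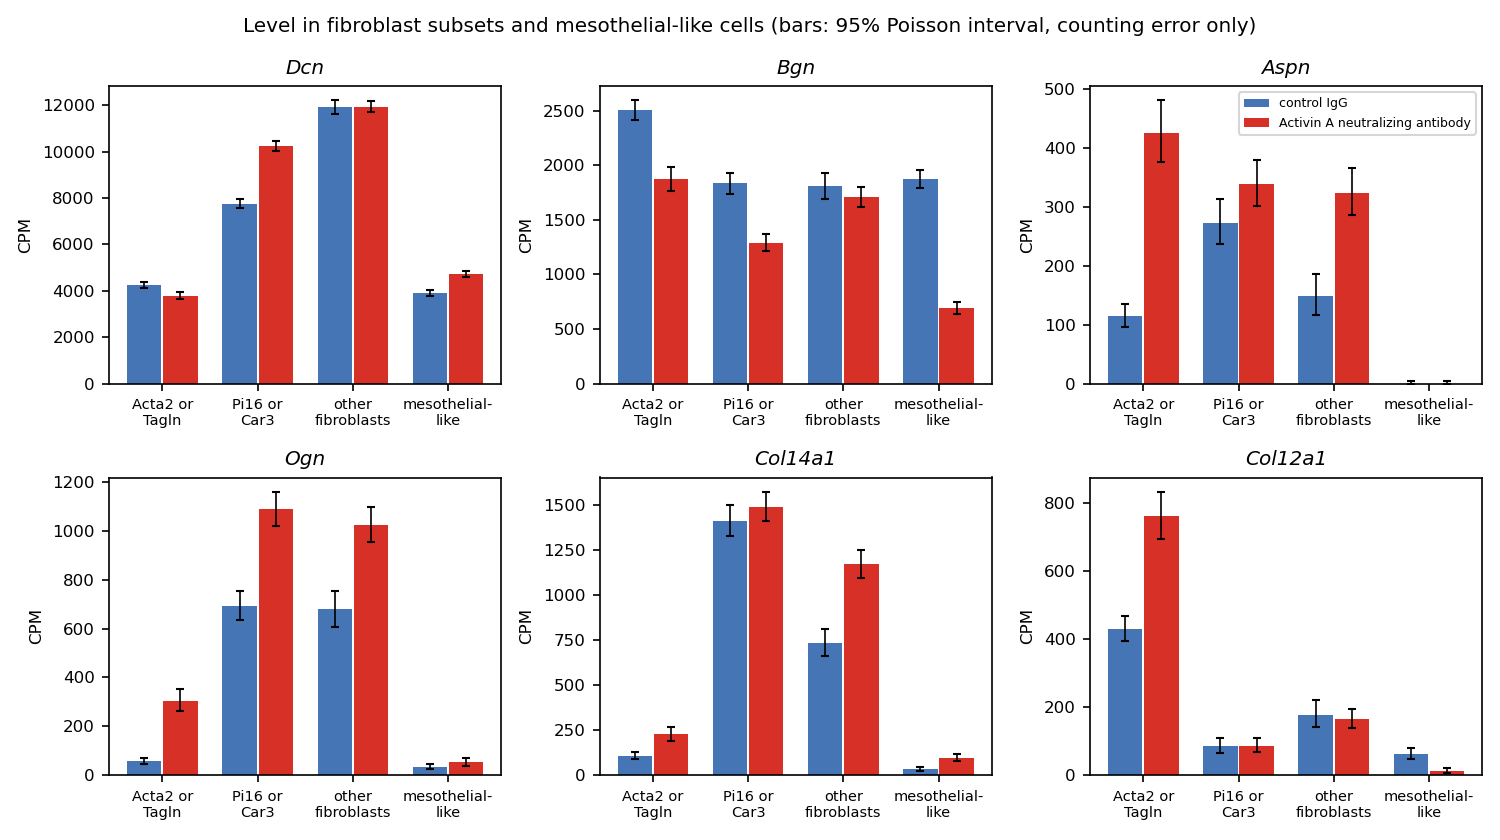
Level in CPM of 6 genes in the fibroblast subsets and in mesothelial-like cells, control IgG in blue and the antibody in red, each bar the sum over the cells of 1 library with a 95% Poisson interval for counting error. Ogn is higher in the antibody library in each fibroblast subset and Bgn lower in Acta2 or Tagln cells, Pi16 or Car3 cells and mesothelial-like cells, while Col14a1 is low and Col12a1 high in Acta2 or Tagln cells.

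The fibroblast subsets differed more by gene than by total. The 33 genes took 4.96% and 5.37% of UMIs in Acta2 or Tagln cells, 5.65% and 6.11% in Pi16 or Car3 cells and 5.67% and 6.09% in the others. Cells with contractile genes thus had the lowest share of all 33 genes in both libraries, but not of the collagens. The 23 collagens summed to 41326 and 45954 CPM in Acta2 or Tagln cells, 44058 and 46211 in Pi16 or Car3 cells and 39868 and 43723 in the others. The 8 small leucine-rich proteoglycans summed to 7836 and 7098, 12104 and 14573, and 16525 and 16811 CPM in the same order. In the control IgG library 4 of 29 members were at least 2-fold higher in Acta2 or Tagln than in Pi16 or Car3 cells, where 9.8% of all genes were, and 7 were at least 2-fold lower, where 12.6% were. The 4 were Col12a1 (log2 difference 2.34), Col4a6 (2.21), Col4a5 (1.79) and Col5a1 (1.08). The 7 were Col14a1 (-3.72), Ogn (-3.64), Prelp (-3.35), Col4a1 (-3.01), Podn (-2.63), Col4a2 (-2.37) and Aspn (-1.25). In the antibody library 2 of 28 were higher and 7 lower, where 7.1% and 13.6% of all genes were, and the differences for Ogn, Col4a1 and Aspn were -1.84, -1.56 and 0.33. Against the other fibroblasts, Acta2 or Tagln cells were higher for 3 and lower for 9 of 29 in the control IgG library, where 9.15% and 12% of all genes were, and higher for 2 and lower for 8 of 28 in the antibody library, where 5.55% and 11.4% were. The other fibroblasts and Pi16 or Car3 cells were 2-fold apart for fewer genes: 3 of 27 were higher in the former in the control IgG library (Col12a1, Col18a1 and Fmod) and none lower, where 2.95% and 3.93% of all genes were. In the antibody library Fmod was higher and Col8a1 lower, where 1.75% and 2.29% of all genes were.

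Within Acta2 or Tagln fibroblasts, 29 genes were measured with a median log2 ratio of 0.36, beside 0.01 over all genes. At least 2-fold higher were 6 of them (Ogn 2.45, Aspn 1.89, Col4a1 1.36, Prelp 1.10, Col14a1 1.08 and Col8a1 1.04), where 2.59% of all genes were, and 1 was lower (Col4a6 -2.14), where 1.83% were. These cells came from both stromal clusters in different proportions, 41 and 18 cells from cluster 12, where 54.3% of cells passed the fibroblast gate and 40.4% the mesothelial gate, and 7 and 8 cells from cluster 11, where 92.9% passed the fibroblast gate. Restricted to cluster 12, of the 6 genes only Col4a1 stayed at least 2-fold higher (1.46), while Aspn was 0.08, Col14a1 0.70 and Col8a1 0.84, and Ogn and Prelp had too few UMIs to be measured (27 and 19, and 17 and 16). On the lower side, Col4a6 also had too few UMIs there (31 and 6). Lum was at least 2-fold lower in these cells (-1.06, -1.28 to -0.84), and Bgn was -0.73. In the same cells the median log2 ratio was 0.04, and those of Col1a1, Col1a2 and Col3a1 were -0.15, -0.27 and -0.23 in place of 0.24, 0.23 and 0.05. In Pi16 or Car3 cells the median was 0.16 over 27 genes, with Col4a5 as the 1 gene at least 2-fold higher, where 1.82% of all genes were, and none at least 2-fold lower, where 1.98% were. In the other fibroblasts the median was 0.06 over 28 genes, with Aspn higher (1.13), where 1.94% of all genes were, and Col18a1 lower (144 and 48.9 CPM, log2 -1.56), where 2.26% were.

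**Figure D4:**
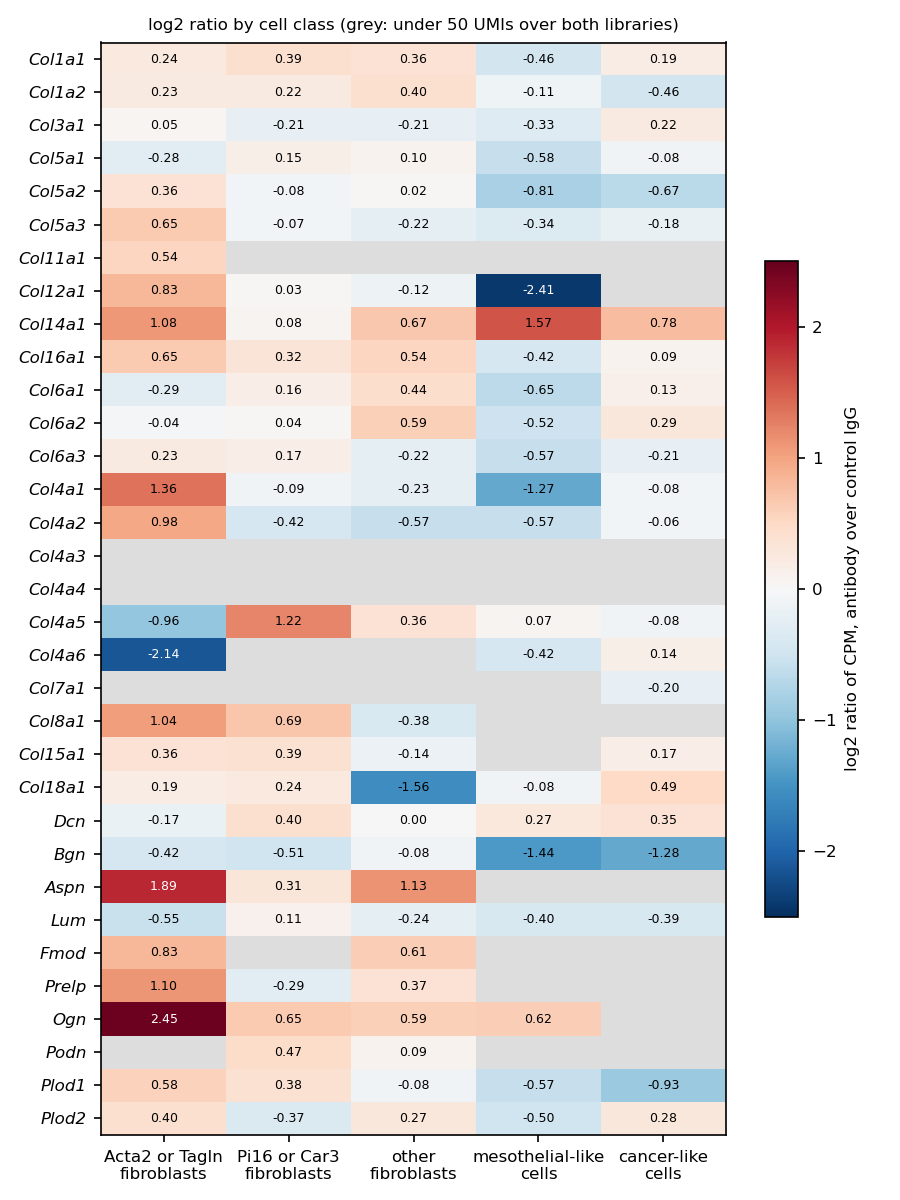
Log2 ratio of CPM, antibody over control IgG, for each gene (rows) in 5 cell classes (columns), red where the antibody library is higher and blue where it is lower, grey where a gene had under 50 UMIs over both libraries. The mesothelial-like column is blue for 19 of its 23 genes, while Col14a1 is red in each column.

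Mesothelial-like cells went the other way from fibroblasts. Of 23 measured genes 19 were below 0, with a median log2 ratio of -0.46 beside 0.01 over all genes, and the sum of the 33 genes was 20323 CPM in control IgG and 16641 CPM in the antibody library. At least 2-fold lower were Col12a1 (62.4 and 11.7 CPM, log2 -2.41), Bgn (-1.44) and Col4a1 (158 and 65.5 CPM, log2 -1.27, -1.71 to -0.85), where 1.49% of all genes were, and Col14a1 was at least 2-fold higher (31.7 and 93.9 CPM, log2 1.57), where 1.74% were. The fibrillar and type VI genes were below 0 in 9 of 9 cases: Col1a1 was 2001 and 1460 CPM, Col5a2 575 and 327 CPM, and Col6a1 2104 and 1338 CPM. Dcn was above 0, at 3898 and 4705 CPM (log2 0.27). Other marker genes moved with these values, since Acta2 stood at 250 and 51.8 CPM, Tagln at 162 and 3.91 CPM, the 8 macrophage and monocyte markers summed to 163 and 45.9 CPM and the 12 fibroblast markers to 624 and 784 CPM, and their part in the result was not tested. Of the 69 cells 30 also passed the fibroblast gate, 14 of 38 in the control IgG library and 16 of 31 in the antibody library. With 1 more marker required the log2 ratios of Col1a1, Col1a2 and Plod2 were 0.02, 0.08 and 0.05 in place of -0.46, -0.11 and -0.50.

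In cancer-like cells the genes were low, and their sum was higher in the antibody library, at 1664 and 1892 CPM (log2 0.19, 0.16 to 0.21). The 23 measured genes had a median log2 ratio of -0.06, beside -0.05 over all genes. Intervals lay wholly above 0 for 9 and wholly below 0 for 5, where those of 15.4% and 24.1% of all genes did. Bgn was the 1 gene at least 2-fold lower, where 1.51% of all genes were, and none was at least 2-fold higher, where 0.971% were. Col3a1 was 369 and 430 CPM while Col1a1 was 22.7 and 25.9 CPM, and 49.4% of the control IgG UMIs of Col1a1 lay in 1 cell. Immune cells held 49.9 and 15.7 CPM of Col1a1 and 62.3 and 26.9 CPM of Col3a1, and without those that lay in the stromal clusters 6.51 and 7.26 CPM of Col1a1 and 14.8 and 13.1 CPM of Col3a1. Col3a1 in cancer-like cells was above either level in both libraries, while Col1a1 in the control IgG library was above the second and not the first. Col5a1 was 56.8 and 53.6 CPM with Col5a2 at 3.15 and 1.98 CPM, giving 18 and 27.1 Col5a1 UMIs per Col5a2 UMI, against 0.965 and 0.738 in fibroblasts. Plod2 was 142 and 173 CPM (log2 0.28) with Plod1 at 2.17 and 1.14 CPM. Col18a1 was 258 and 362 CPM (log2 0.49, 0.44 to 0.54), and Col14a1 was 12.1 and 20.8 CPM (log2 0.78, 0.54 to 1.02) beside 2.08 and 1.06 CPM in immune cells.

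Immune cells were read as the background for these genes, except Plod1 and Plod2. Of the UMIs in kept cells they held 69.6% and 46.5% for Plod1 and 12.5% and 7.88% for Plod2. Over all genes they held 54448820 of 80208236 UMIs in the control IgG library and 32050700 of 57416419 in the antibody library. These shares thus show no concentration of Plod2 in immune cells. Their 33 genes summed to 296 CPM in control IgG and 128 CPM in the antibody library, with 11 of 22 measured genes at least 2-fold lower, where 2.58% of all genes were, and none at least 2-fold higher, where 1.09% were. A few cells set this: 12 control IgG and 2 antibody cells that passed the immune gate but lay in the stromal clusters held 70.0% and 38.5% of these UMIs. Without them the sums were 89.5 and 79.0 CPM, Plod1 making up 24.2 and 12.8 CPM. The log2 ratio of the sum was -0.18 in place of -1.21.

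Genes of the same pathway in fibroblasts are read against the 1.66% of all measured genes that were at least 2-fold lower and the 2.07% that were higher. Of 21 other collagen chains 5 were measured, and Col24a1, a fibrillar chain, was at least 2-fold lower (183 and 69.3 CPM, log2 -1.41, -1.68 to -1.14), with none at least 2-fold higher. Of 8 other small leucine-rich proteoglycans 2 were measured, and Omd was at least 2-fold higher. Of 18 genes for folding and modification in the endoplasmic reticulum 17 were measured, with a median log2 ratio of -0.10, none at least 2-fold lower, and Colgalt2, a galactosyltransferase for hydroxylysine, higher on 21 and 41 UMIs (8.54 and 18.2 CPM, log2 1.09). Of 12 genes for procollagen cleavage and cross-linking 10 were measured and of 8 collagen receptors 7, and none of either list was 2-fold apart.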

How the data were processed

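Tumor cells were profiled by droplet single-cell RNA sequencing with 3′ tags and no selection of cell types. The authors deposited raw UMI counts per gene and barcode, made with Cell Ranger on mm10. The submitters' processing notes give version 7.0.1, while the file headers name version 4, which was not settled. The mouse numbers and days of treatment are those of the labels.

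Barcodes were kept from 1000 up to 8500 genes and from 1000 up to 100000 UMIs, where mitochondrial genes took no more than 10% of UMIs. A cell was assigned to a class where at least 3 of its markers held at least 1 UMI and at least 1 per 10000 UMIs, thresholds set after the cells were seen. No doublet caller was run, and 129 and 76 cells with markers of 2 classes were left out, as were 62 and 45 without a class. Cells that passed only the fibroblast and mesothelial gates were an exception and were kept as mesothelial-like. UMIs were summed per class and library. A gene with at least 50 UMIs over both libraries was measured, so that genes high in 1 library pass more readily. A call needed a 2-fold ratio with no condition on its interval, and the shares over all genes were counted in the same way. With 1 library per group no p-value was computed. As 3′ counts, levels are compared between classes and libraries, not as levels between genes. Clusters were made without the 33 genes (Leiden, resolution 0.5). The members, the pathway lists and the comparisons were chosen with earlier results of these data known. All 33 genes are named, and of the pathway lists those at least 2-fold apart in all fibroblasts. Promoter windows are those of RefSeq, checked against the GENCODE annotation. Python 3.11.15, scanpy 1.11.5, leidenalg 0.10.2 and scipy 1.17.1 were used. The ratio, its interval and the 2-fold call were tested on simulated Poisson counts for all fibroblasts. The gate, the clusters and the promoter search were not.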

Additional observations from a re-analysis of the deposited data

Results flagged for a closer look

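Col4a1, a chain of basement membrane collagen, was on opposite sides in 2 classes. Its log2 ratio of antibody over control IgG was 1.36 in Acta2 or Tagln fibroblasts (54 and 69 UMIs) and -1.27 in mesothelial-like cells (160 and 67 UMIs), and the difference between these ratios was not tested, since each group is 1 library.

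Endothelial-like cells entered no comparison, with 7 cells in the control IgG library and 2 in the antibody library. Their levels of type IV collagen were above those of every class compared: Col4a1 stood at 745 CPM (561 to 970) and 1923 CPM (1653 to 2225), and Col4a2 at 461 CPM (319 to 644) and 1307 CPM (1086 to 1559). In the antibody library 92.8% of these Col4a1 UMIs and 94.3% of these Col4a2 UMIs lay in 1 cell.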

How the results depend on the processing

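No paired analysis was possible because the study holds a single pool of mice per treatment, and no replicate could be left out. Of 80 values for whole classes under the alternatives, 62 moved by less than their counting interval or within 1.5 times their count. Of 1074 for single genes 922 did, while 140 moved further and 12 changed sign from a main ratio whose interval excluded 0. Where that interval included 0, a change of sign was not counted apart from the 922 and 140. The sign changes named below are these 12. The log2 ratio of the summed genes in fibroblasts, 0.15, was 0.14 with scaling by the median ratio over genes, 0.13 with cells weighted equally, 0.19 with 1 more marker required, 0.092 in Leiden clusters, 0.11 with the subset mix of control IgG and 0.21 without the deepest 5% of cells. The count of genes at least 2-fold higher, 2, was 0 with cells weighted equally, 1 in Leiden clusters, 1 with the subset mix held and 5 at 1.5-fold, and the count lower, 1, was 0 in Leiden clusters, where Col4a6 was -0.53 in place of -1.30. No share over all genes was counted at 1.5-fold or under the other alternatives, so these counts cannot be set against one. The share of these UMIs held by fibroblasts, 52.7% and 61.1%, was 46.7% and 59.0% with 1 more marker and 53.7% and 61.6% without the deepest cells. The Leiden clusters named for fibroblasts, 11 and 12, were taken whole, and 40.4% of the cells of cluster 12 passed the mesothelial gate. These clusters held 83.5% and 79.5%, a share of more than fibroblasts, and there the control IgG share was the higher. With cells weighted equally the sign changed for Col5a2 in all fibroblasts (-0.016), Col5a1 in Acta2 or Tagln cells (0.000218) and Fmod in the other fibroblasts (-0.020). With 1 more marker it changed for Col5a1 in Acta2 or Tagln cells (0.051), for Fmod (-0.12) and Aspn (-0.076) in the other fibroblasts, and for Col1a1 (0.021), Col1a2 (0.080) and Plod2 (0.055) in mesothelial-like cells. In cells of cluster 12 alone, an alternative chosen after seeing the data like that for immune cells, the median of Acta2 or Tagln cells was 0.040 in place of 0.36, and Col1a1 (-0.15), Col1a2 (-0.27) and Col3a1 (-0.23) changed sign. The cause was not tested. No cluster took the mesothelial name and the subsets have no clusters of their own, so those alternatives were not run. Depth limits Col4a3, Col4a4, Col4a6, Col7a1 and Col11a1 most.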
